A study of Mus musculus with 18 samples.

Results

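DUSP, Sprouty and Spred genes encode brakes on mitogen-activated protein kinase (MAPK) signalling, and 10 of them, Dusp1, Dusp2, Dusp4, Dusp5, Dusp6, Dusp10, Spry1, Spry2, Spred1 and Spred2, were followed by name among the 23219 rows of a total RNA table from mouse CD4+ T cells. The groups were Hopx-high cells, Hopx-low cells and naive cells, each with 3 libraries of total RNA and 3 of small RNA. The study set antigen-specific T cells that dendritic cells had activated, split by their level of the homeodomain protein Hopx, against naive T cells. All groups came from spleen and lymph nodes of C57BL6 mice, and the labels give every sample the same protocol, an intraperitoneal injection of chimeric antibodies that carry antigen to dendritic cells, 5 days before collection. The labels give no age, do not say how Hopx levels were told apart, and do not state if each library is from its own animal, so the p-values here cover no more than the spread among these libraries, which may be technical.

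MAPK cascades carry signals from the T cell receptor through RAS, RAF and MEK to ERK, and through parallel branches to JNK and p38. Dual-specificity phosphatases (DUSPs) of the MAPK phosphatase type remove the activating phosphates from ERK, JNK or p38, while Sprouty and Spred proteins act upstream, between the receptor and RAF. Many of these genes are switched on by the pathway they restrain, and form a negative feedback loop that is well known in T cells after antigen contact.

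Levels are aligned bases over a gene per megabase covered in its library, recovered from the deposited signal, whose unit was inferred from its values. Fold changes are on the log2 scale of the level plus 1. They were tested with limma over all 11320 features that passed a filter on low values (Benjamini-Hochberg, adjusted p below 0.05). Libraries held 105 to 329 megabases of total RNA, so 1 unit of level was worth about 0.945 to 2.94 reads. Hopx itself had levels of 34.2, 26.1 and 23.1 in Hopx-high cells, 5.90, 7.49 and 7.59 in Hopx-low cells, and 1.76, 0 and 1.15 in naive cells, in the order of the labels. Lars2 took 18.9% of the bases in Hopx-high replicate 3 and 18.0% in Hopx-low replicate 1, which were also the shallowest (110 and 105 megabases). Its share elsewhere was 0.525 to 6.55%. The summed level of 6 CD4+ T cell markers was 4099 to 5148 in Hopx-high, 4243 to 5210 in Hopx-low and 4300 to 5142 in naive libraries. Of these 6, Cd5 was higher in both activated groups than in naive cells (1.24 and 1.36) and Cd3g lower (-0.85 and -0.88), past the limma threshold. Against naive cells, 952 features were higher and 1714 lower in Hopx-high cells, and the median of all features was -0.29. Scaling to equal upper quartiles turned this split to 1382 higher and 1183 lower and moved that median to -0.09.

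Of the 10 genes, 9 have an entry in the RefSeq promoter table of GRCm38.p6, and Dusp4 has none, so its promoter was not searched. For the 9, the 250 bases before the start were searched on both strands for letters bound by factors downstream of MAPK signalling. The searched motifs were the cAMP response element TGACGTCA (CRE, in 1.55% of 32851 promoters), the AP-1 motif TGANTCA (6.75%), the EGR motif GCGNGGGCG (4.70%), the ETS motif CCGGAAGT (2.88%) and the CArG box of serum response factor (1.47%). The promoters shown are those of Dusp2, Dusp6 and Spry1, whose RNA was higher in Hopx-low than in naive cells, and those of Dusp1 and Dusp5, which held a motif although their RNA passed no test; capitals mark the motif matches.
Dusp1, chr17:26508473-26508722, minus strand: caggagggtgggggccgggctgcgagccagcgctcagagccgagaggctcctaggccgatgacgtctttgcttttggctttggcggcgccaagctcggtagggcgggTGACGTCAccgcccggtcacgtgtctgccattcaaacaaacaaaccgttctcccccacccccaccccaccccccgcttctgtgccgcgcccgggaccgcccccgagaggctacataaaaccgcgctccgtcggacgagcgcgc
Dusp2, chr2:127335909-127336158, plus strand: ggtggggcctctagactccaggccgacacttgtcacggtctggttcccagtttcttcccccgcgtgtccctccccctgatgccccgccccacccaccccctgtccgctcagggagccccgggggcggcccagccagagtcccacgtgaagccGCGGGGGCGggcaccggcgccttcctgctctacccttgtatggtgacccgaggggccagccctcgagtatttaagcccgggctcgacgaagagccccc
Dusp5, chr19:53528895-53529144, plus strand: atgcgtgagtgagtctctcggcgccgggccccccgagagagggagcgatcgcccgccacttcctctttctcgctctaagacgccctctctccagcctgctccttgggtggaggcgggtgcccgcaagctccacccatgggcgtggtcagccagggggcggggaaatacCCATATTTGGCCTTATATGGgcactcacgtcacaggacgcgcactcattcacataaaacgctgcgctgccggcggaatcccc
Dusp6, chr10:99262981-99263230, plus strand: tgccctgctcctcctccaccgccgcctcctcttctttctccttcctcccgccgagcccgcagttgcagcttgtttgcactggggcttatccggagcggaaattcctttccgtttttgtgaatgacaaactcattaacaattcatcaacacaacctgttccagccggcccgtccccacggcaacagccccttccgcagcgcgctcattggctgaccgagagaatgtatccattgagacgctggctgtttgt
Spry1, chr3:37639697-37639946, plus strand: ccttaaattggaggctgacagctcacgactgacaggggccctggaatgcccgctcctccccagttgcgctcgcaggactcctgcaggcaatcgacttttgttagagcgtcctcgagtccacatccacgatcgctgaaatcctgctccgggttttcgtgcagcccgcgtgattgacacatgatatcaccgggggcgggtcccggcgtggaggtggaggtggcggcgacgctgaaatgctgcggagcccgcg
Dusp1 held a CRE, Dusp2 an EGR motif, and Dusp5 a pair of adjoining CArG boxes. None of these letters occurred in the windows of Dusp6, Spry1, Dusp10, Spry2, Spred1 and Spred2. GC content ran from 56.0% (Spred2) to 70.8% (Spred1) over the 9 promoters, against a median of 52.4% over all promoters. A match is a description of the letters and not a measured binding site.

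Against naive cells, 3 of the 9 tested genes, Dusp4, Dusp6 and Spry1, rose in Hopx-high cells and none fell, where 23.6% of all tested features changed, 8.41% higher and 15.1% lower. In Hopx-low cells 4 of 9 rose, these 3 and Dusp2, and none fell, where 8.39% of all tested features changed, 4.75% higher and 3.64% lower. Activated and naive libraries did not overlap for 3 of the 9 genes in Hopx-high and for 5 in Hopx-low cells (Dusp5 besides the 4), where 39.1% and 29.2% of all features had no overlap. The median fold change of the 9 was 0.31 in Hopx-high and 0.56 in Hopx-low cells, beside -0.29 and -0.16 for all features. Both comparisons use the same naive libraries. Spry2 did not pass the filter, and Spry1 and Dusp4 passed it mainly through the activated libraries, so these counts and medians describe the genes and are no test of the family.

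**Figure D1:**
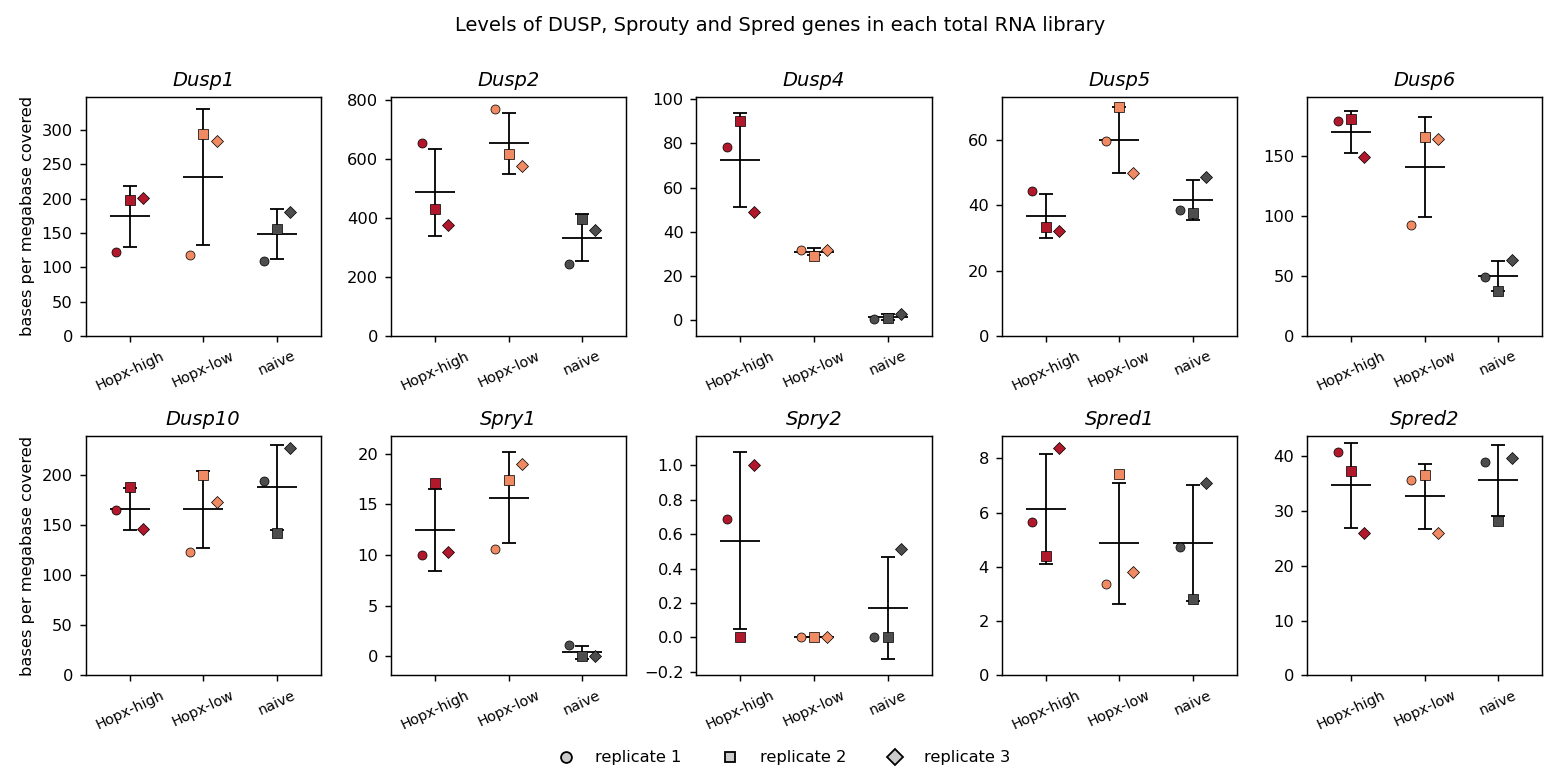
Level of each of the 10 genes in every total RNA library (bases per megabase covered, linear axes that differ between panels), with Hopx-high, Hopx-low and naive cells from left to right. Points are libraries, the long line is the group mean and the bars are 1 SD (n = 3). The naive libraries lie apart from both activated groups for Dusp4, Dusp6 and Spry1, and overlap with them for Dusp10 and Spred2.

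Of the nuclear phosphatases, Dusp4, which acts on ERK and JNK (chromosome 8, 34807610 to 34819894 in GRCm38.p6), was near 0 in naive cells. Its level was 78.2, 90.3 and 48.9 in Hopx-high cells, 31.7, 29.0 and 31.8 in Hopx-low cells, and 0.29, 1.03 and 2.59 in naive cells. All activated libraries lay above all naive ones, and each Hopx-high library above each Hopx-low one. The naive coverage was worth about 0.704 to 7.17 reads a library, so naive cells held next to no Dusp4 RNA at this depth. Dusp4 rose by 5.08 ± 0.38 (SE) in Hopx-high cells (limma adjusted p 6.5e-10) and by 3.91 ± 0.38 in Hopx-low cells (limma adjusted p 1.1e-07). The mean was 72.4 ± 21.3 in Hopx-high, 30.8 ± 1.61 in Hopx-low and 1.30 ± 1.17 in naive cells (SD, n = 3 each), and since naive coverage is so thin the fold depends on the pseudocount, with a range of 3.59 to 6.24 and 2.52 to 5.05 over the alternatives, all of which kept both calls.

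Dusp2, also called PAC-1, is a nuclear phosphatase known from activated lymphocytes (chromosome 2, 127336159 to 127338377). Its level was 656, 429.9 and 378 in Hopx-high cells, 770.1, 616 and 575 in Hopx-low cells, and 246, 397 and 359 in naive cells. Every Hopx-low library exceeded every naive one, while Hopx-high libraries overlapped with both other groups. Dusp2 rose by 0.98 ± 0.21 in Hopx-low cells, 1.96-fold between the means (limma adjusted p 0.0035). In Hopx-high cells the difference from naive was 0.53 ± 0.21 with an adjusted p of 0.069 by limma, which passed at 0.036 with upper-quartile scaling (0.75), 0.032 with quantile normalization (0.65), 0.034 with library totals counted without Lars2 (0.65), 0.046 without naive replicate 2 (0.67) and 0.034 without both Lars2-rich libraries (0.70). The call in Hopx-low cells was lost when limma was run without its trend and robust settings (adjusted p 0.083).

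Dusp1, an early-response nuclear phosphatase for p38 and JNK (chromosome 17, 26505591 to 26508472), had levels of 123, 199 and 201 in Hopx-high cells, 118, 294 and 284 in Hopx-low cells, and 109, 156 and 180.1 in naive cells. The groups overlapped in each comparison, and replicate 1 was the lowest library of every group. Dusp1 did not pass the test in Hopx-high cells (0.23 ± 0.31, 95% interval -0.42 to 0.87, limma adjusted p 0.61) or in Hopx-low cells (0.56 ± 0.31, -0.09 to 1.20, adjusted p 0.29). Without Hopx-low replicate 1, which is one of the Lars2-rich libraries, the Hopx-low difference was 0.99 with a limma adjusted p of 0.013. Fos, an early gene of the same kind whose values were looked up after those of Dusp1 were seen, showed the same low replicate 1, at 87.0, 159.7 and 236 in Hopx-high cells, 91.6, 255 and 428 in Hopx-low cells, and 86.6, 109 and 159 in naive cells. Fosb and Jun were also lowest in replicate 1 of each group. In Hopx-high cells replicate 1 was instead the highest library for the early genes Junb, Egr1, Egr2, Egr3, Ier2, Ier3, Zfp36, Myc and Nr4a1. In Hopx-low cells replicate 1 was the lowest library for each of these genes, and in naive cells for Junb, Egr1, Egr2, Ier2 and Zfp36. Dusp2 was highest in replicate 1 of both activated groups. A low replicate 1 was thus common among these early genes in Hopx-low cells but not in Hopx-high cells. What sets it low for Dusp1 and Fos was not tested.

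Dusp5 encodes a nuclear phosphatase specific for ERK (chromosome 19, 53529145 to 53541809). Its level was 44.3, 33.4 and 32.2 in Hopx-high cells, 59.6, 69.9 and 49.8 in Hopx-low cells, and 38.5, 37.7 and 48.5 in naive cells. The Hopx-low libraries lay above all others, yet no comparison passed: the difference from naive was -0.18 ± 0.25 in Hopx-high cells (limma adjusted p 0.62) and 0.51 ± 0.25 in Hopx-low cells (0.22), and the Hopx-high to Hopx-low difference was -0.69 ± 0.25 (0.19). The sign of the Hopx-high difference from naive turned positive with upper-quartile scaling and quantile normalization (0.03 and 0.05).

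Dusp6 encodes the cytoplasmic counterpart, which is also specific for ERK (chromosome 10, 99263231 to 99267489). Its level was 179, 181 and 149.6 in Hopx-high cells, 92.9, 166 and 164 in Hopx-low cells, and 49.5, 37.97 and 63.4 in naive cells. All 6 activated libraries lay above the 3 naive ones, and Hopx-low replicate 1 was the lowest of the 6. Dusp6 rose by 1.76 ± 0.24 in Hopx-high cells, 3.38-fold between the means (limma adjusted p 8.9e-06), and by 1.45 ± 0.24 in Hopx-low cells, 2.80-fold (limma adjusted p 0.00023). Mean levels were 169.9 ± 17.6 in Hopx-high, 141 ± 41.6 in Hopx-low and 50.3 ± 12.7 in naive cells (SD, n = 3 each).

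Dusp10, which acts on JNK and p38 (chromosome 1, 184034381 to 184075636), averaged 167 ± 21.1 in Hopx-high, 166 ± 38.9 in Hopx-low and 188 ± 42.7 in naive cells (SD, n = 3 each), and the groups overlapped. The 95% interval of the difference from naive was -0.60 to 0.29 in Hopx-high and -0.62 to 0.26 in Hopx-low cells, both of which end below the estimates of Dusp6.

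Among the Sprouty genes, whose products damp signalling from receptors to RAS and RAF, Spry1 (chromosome 3, 37639947 to 37644599) was near 0 in naive cells. Its level was 10.03, 17.1 and 10.3 in Hopx-high cells, 10.6, 17.4 and 19.0 in Hopx-low cells, and 1.12, 0 and 0 in naive cells. The 6 activated libraries lay above all naive ones, with about 9.97 to 51.2 reads each against 0 to 2.70 in naive libraries. Spry1 rose by 3.35 ± 0.45 in Hopx-high cells (limma adjusted p 8.2e-06) and by 3.66 ± 0.45 in Hopx-low cells (limma adjusted p 4.8e-06). With naive cells near 0 the size depends on the pseudocount, from 1.68 to 8.16 and from 1.92 to 8.49 over the alternatives, while the call held under all 22. Spry2 (chromosome 14, 105891947 to 105896819) was listed at 0.685, 0 and 1.00 in Hopx-high cells, at 0 in all Hopx-low libraries, and at 0, 0 and 0.515 in naive cells. These are at most about 1.43 reads a library, and no difference was detectable at this depth.

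The Spred proteins bind neurofibromin, the RAS inactivator, and hold it at the membrane. Spred1 (chromosome 2, 117121071 to 117182279) had levels of 5.67, 4.39 and 8.37 in Hopx-high cells, 3.38, 7.42 and 3.81 in Hopx-low cells, and 4.74, 2.82 and 7.09 in naive cells, with about 3.19 to 21.8 reads a library. Spred2 (chromosome 11, 19924442 to 20024026) averaged 34.7 ± 7.72 in Hopx-high, 32.7 ± 5.90 in Hopx-low and 35.6 ± 6.41 in naive cells (SD, n = 3 each). The groups overlapped for both genes. The 95% interval of the difference from naive was -0.64 to 1.25 and -0.95 to 0.95 for Spred1, and -0.62 to 0.53 and -0.69 to 0.45 for Spred2, in Hopx-high and in Hopx-low cells. All 4 intervals end below the Dusp6 estimates of 1.76 and 1.45, and those of Spred1 are the wider.

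**Figure D2:**
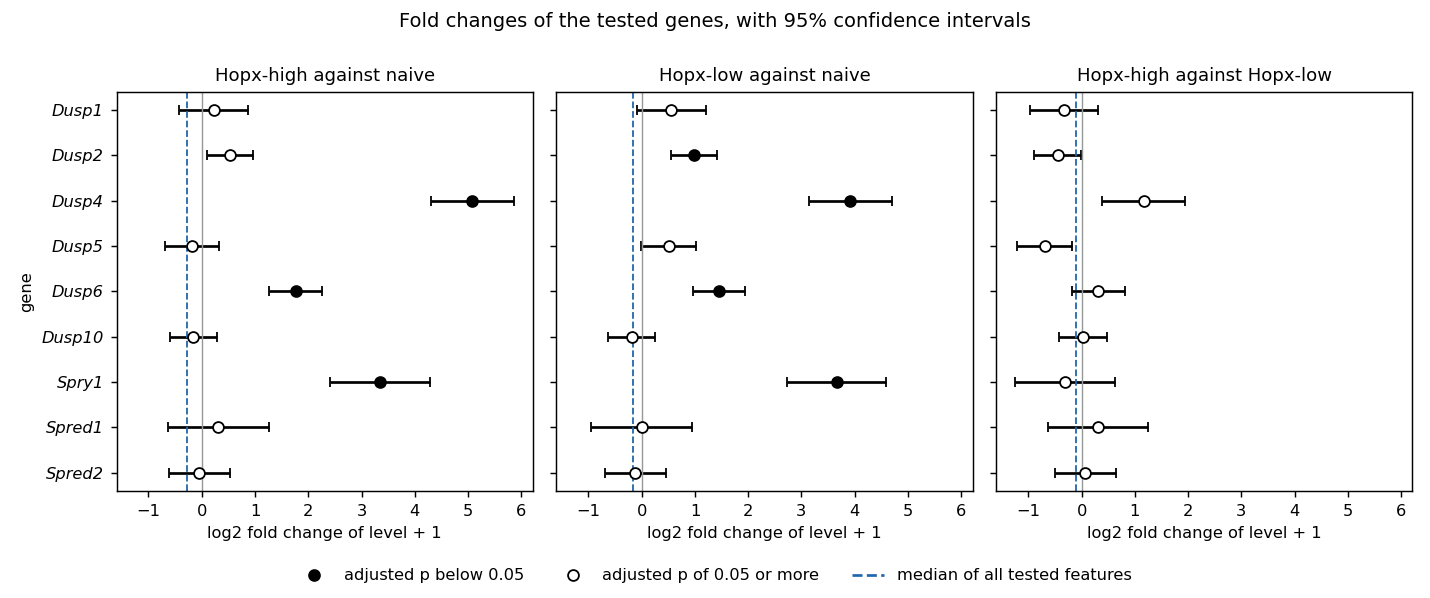
Log2 fold change of the level plus 1 for the 9 tested genes in each comparison, with 95% confidence intervals from limma. Filled points have an adjusted p below 0.05 over all features, and the dashed line is the median of all tested features. Dusp4 stands farthest right in both comparisons with naive cells, at 5.08 and 3.91, and no point of the third panel is filled.

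Between Hopx-high and Hopx-low cells, 0 of the 9 genes passed the limma test, where 2.14% of all tested features did (1.22% higher and 0.919% lower). Dusp4, Dusp2 and Dusp5 had an unadjusted limma p below 0.05. The share of all features below that unadjusted threshold was not taken, and the 2.14% is for adjusted p, so these 3 have no share to stand beside. No other kind of test was run. Dusp4 and Dusp5 were the 2 genes whose libraries did not overlap between these groups, where 16.7% of all features had none. Dusp4 was higher in Hopx-high cells by 1.16 ± 0.38, 2.35-fold between the means, with a limma adjusted p of 0.13 that ranged from 0.017 to 0.46 over the alternatives. It passed with upper-quartile scaling (1.30, adjusted p 0.046), with only the 6 compared libraries in the fit (1.16, adjusted p 0.017) and with a pseudocount of 5 (1.07, adjusted p 0.027). Dusp2 and Dusp5 were lower in Hopx-high cells, by differences of -0.45 ± 0.21 and -0.69 ± 0.25, with limma adjusted p of 0.35 and 0.19.

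Markers of other cell types were measured beside Dusp4, since Hopx-high libraries held more of some. The summed level of 5 B cell markers was 40.6 to 57.8 in Hopx-high, 8.57 to 11.2 in Hopx-low and 7.47 to 37.2 in naive libraries. That of 4 monocyte and macrophage markers was 38.7 to 89.5, 8.10 to 28.8 and 11.2 to 30.1 in the same groups. Dendritic cell markers summed to at most 5.05 in any library, with Xcr1 at 0 throughout, and CD8 markers to 39.3 to 45.2 in Hopx-high, 52.6 to 84.0 in Hopx-low and 126 to 149 in naive libraries. The part of these cells in the Dusp4 values was not tested. In these bulk libraries, fewer cells with a transcript and less of it per cell cannot be told apart.

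The other genes of the pathway were taken from lists of known members. Of 12 tested further DUSPs and MAPK phosphatases, Ptpn7 and Dusp14 rose and Dusp7 and Dusp28 fell in Hopx-high cells, and Ptpn7 alone rose in Hopx-low cells, beside 23.6% and 8.39% of all features called in these comparisons. Ptpn7, the haematopoietic tyrosine phosphatase of ERK and p38, averaged 375 ± 35.1 in Hopx-high, 303 ± 57.6 in Hopx-low and 191 ± 34.1 in naive cells (SD, n = 3 each), a rise of 0.98 ± 0.19 in Hopx-high cells (limma adjusted p 0.00056) and 0.66 ± 0.19 in Hopx-low cells (limma adjusted p 0.029). The Hopx-low call was lost without naive replicate 2, Hopx-low replicate 2 or Hopx-low replicate 3 (adjusted p 0.16, 0.12 and 0.10). Dusp7, which like Dusp6 is a cytoplasmic phosphatase of ERK, averaged 123 ± 16.1 in Hopx-high, 158 ± 13.0 in Hopx-low and 229.9 ± 16.3 in naive cells, a fall in Hopx-high cells (-0.90 ± 0.18, limma adjusted p 0.00086). Dusp28 fell in Hopx-high cells (-0.99 ± 0.31, limma adjusted p 0.024), a call lost without naive replicate 2 or 3 or Hopx-high replicate 2 and under upper-quartile scaling or quantile normalization. Dusp14 averaged 2.71 in Hopx-high and 2.03 in Hopx-low cells and was listed at 0 in all naive libraries, so it passed the filter through the activated libraries alone. Its call was lost on leaving out any naive library or Hopx-high replicate 2 and with a pseudocount of 5 (0.56, limma adjusted p 0.056). Spry4, the only other Sprouty or Spred gene tested, had levels of 0.911 to 1.57 in Hopx-high, 0 to 1.24 in Hopx-low and 0 to 0.314 in naive libraries and did not pass.

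In the RAS to ERK cascade, 2 of 19 tested genes rose and 3 fell in Hopx-high cells, and 2 rose and 1 fell in Hopx-low cells. These 5 of 19 stand beside 23.6% of all tested features in Hopx-high cells, and the 3 of 19 in Hopx-low cells beside 8.39%. Of the RAS activators, Rasgrp4 rose and Rasgrp2 fell in both groups, while Rasgrp1, Sos1 and Sos2 passed no test against naive cells. Rasgrp4 averaged 45.4 ± 9.03 in Hopx-high, 24.6 ± 8.57 in Hopx-low and 2.52 ± 0.970 in naive cells (rises of 3.74 ± 0.36 and 2.85 ± 0.36, limma adjusted p 4.9e-08 and 6.5e-06). Rasgrp2 averaged 178 ± 45.7 in Hopx-high, 319.5 ± 16.9 in Hopx-low and 635 ± 71.5 in naive cells (-1.86 ± 0.18 and -0.98 ± 0.18 against naive, limma adjusted p 7.7e-08 and 0.00094). It was also lower in Hopx-high than in Hopx-low cells (-0.87 ± 0.18, limma adjusted p 0.0098), a call lost without Hopx-low replicate 3 (0.061) or Hopx-high replicate 3 (0.089). Ksr1, the scaffold of the ERK cascade, rose in both (1.57 ± 0.19 and 1.13 ± 0.19, limma adjusted p 2e-06 and 0.00035), and Nras fell in Hopx-high cells (-1.23 ± 0.27, limma adjusted p 0.0023).

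Of the 15 tested genes of the p38 and JNK branches, 3 rose and 4 fell in Hopx-high cells, and 1 rose and 1 fell in Hopx-low cells, beside 23.6% and 8.39% of all features called. With upper-quartile scaling or quantile normalization 1 fell in Hopx-high cells. The calls of Map3k5 and Mapk11 in Hopx-high cells were lost without Hopx-high replicate 3 (limma adjusted p 0.079 and 0.074), Map3k5 also without naive replicate 2 (0.057) and Mapk11 without naive replicate 1 (0.10). Map2k4, which fell in Hopx-low cells, was lost without naive replicate 1 (0.13), naive replicate 3 (0.062), Hopx-low replicate 2 (0.056) or Hopx-low replicate 3 (0.07). Mapkapk2, the kinase directly below p38, rose in both, with means of 346 ± 40.4 in Hopx-high, 381 ± 45.0 in Hopx-low and 154 ± 35.2 in naive cells (1.18 ± 0.19 and 1.32 ± 0.19, limma adjusted p 6.8e-05 and 3.5e-05). Of the 15 tested brakes on RAS and ERK that are no DUSP, Sprouty or Spred gene, 2 rose and 3 fell in Hopx-high cells, beside 8.41% and 15.1% of all features, and 3 rose and 2 fell in Hopx-low cells, beside 4.75% and 3.64%. With upper-quartile scaling 4 rose in Hopx-high cells. Dab2ip, among those that rose in both groups, had levels of 0.539, 0 and 0.381 in naive cells. All are below the filter level of 1, so it passed the filter through the activated libraries alone. Rasa3, a RAS inactivator, averaged 190.4 ± 31.5 in Hopx-high, 289.7 ± 55.9 in Hopx-low and 672 ± 85.2 in naive cells (-1.82 ± 0.19 and -1.22 ± 0.19, limma adjusted p 1.3e-07 and 8.4e-05). Of the diacylglycerol kinases, Dgkz rose in both (0.94 ± 0.14 and 0.73 ± 0.14, limma adjusted p 3.3e-05 and 0.0014), while Dgka fell in both (-1.35 ± 0.24 and -0.99 ± 0.24, limma adjusted p 0.00038 and 0.013). The Dgka call in Hopx-low cells was lost without naive replicate 1 (adjusted p 0.09) and without Hopx-low replicate 1 (-0.67, adjusted p 0.074).

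Of the early genes that ERK signalling induces, 6 of 17 tested rose in Hopx-high cells beside 3 that fell, and 6 rose in Hopx-low cells beside none that fell. Of all features, 8.41% rose and 15.1% fell in Hopx-high cells and 4.75% rose in Hopx-low cells. Ier3, among the 6 in Hopx-high cells, was listed at 0 in all naive libraries and so passed the filter through the activated ones alone. Nr4a1, an orphan nuclear receptor used as a marker of T cell receptor signalling, averaged 362 ± 80.5 in Hopx-high, 624 ± 67.4 in Hopx-low and 50.2 ± 6.69 in naive cells (2.81 ± 0.19 and 3.61 ± 0.19, limma adjusted p 1.7e-10 and 6.6e-12). It was lower in Hopx-high than in Hopx-low cells (-0.80 ± 0.19, limma adjusted p 0.025), a call lost without Hopx-low replicate 2 (0.14), Hopx-low replicate 3 (0.091) or Hopx-high replicate 3 (0.19). Egr2 averaged 96.5 ± 11.8 in Hopx-high, 148 ± 6.24 in Hopx-low and 17.7 ± 2.91 in naive cells (2.38 ± 0.22 and 3.00 ± 0.22, limma adjusted p 2.4e-08 and 1.1e-09), and Egr3 and Egr1 rose in both groups as well. The genes that fell in Hopx-high cells were Ier2, Junb and Zfp36, named after their values were seen.

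**Figure D3:**
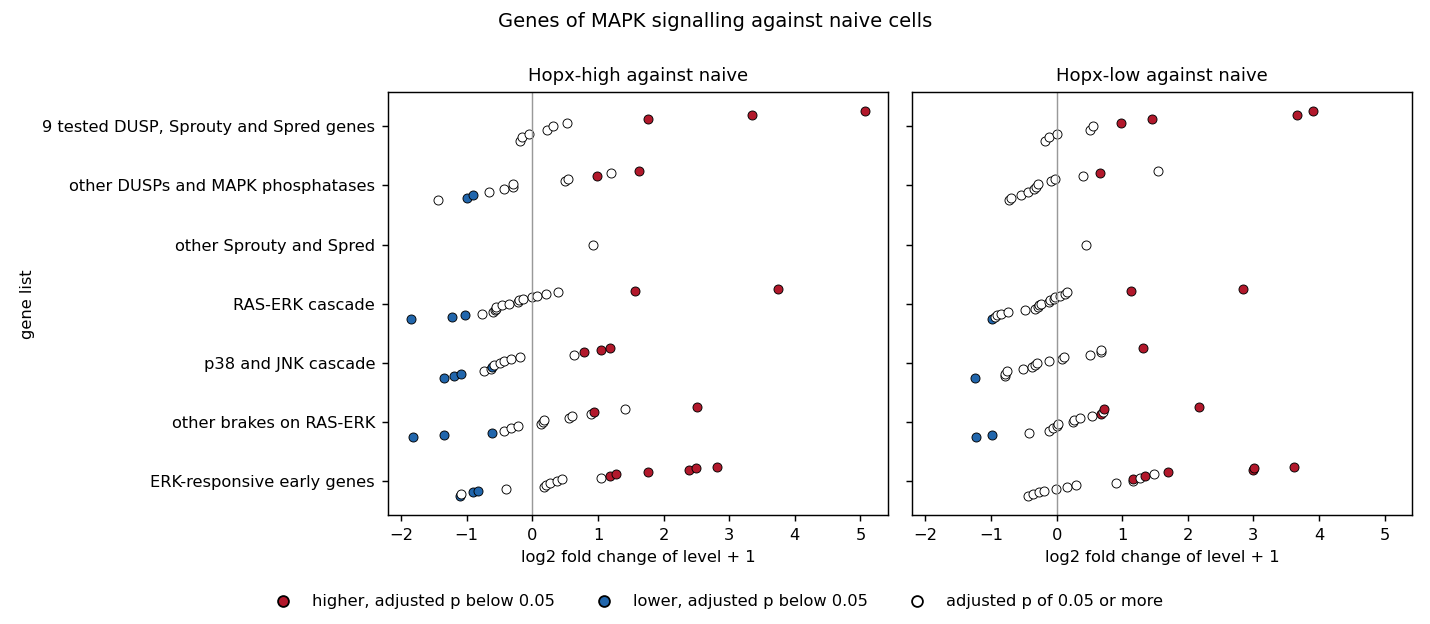
Log2 fold change of the level plus 1 against naive cells for every tested gene of the MAPK lists, in Hopx-high cells (left) and Hopx-low cells (right). Red points rose and blue points fell at an adjusted p below 0.05 over all features, and open points did not pass. The tested DUSP, Sprouty and Spred genes in the top line hold 3 red points on the left and 4 on the right, and no blue ones.

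Which genes had the profile most like that of each member was measured by the root mean square difference of log2 levels, centred over the 9 libraries, among features with a mean level of at least 10. For Dusp4 these were Adap1, Hist1h3g and Chst2 (0.378 to 0.397). Hist1h3g belongs to a family of near-identical histone genes, so its value is uncertain. For Dusp6 they were Capn3, Fbxl19 and Tspan13 (0.177 to 0.208), and for Dusp2 they were Nfkbib, Nhp2 and Nme1 (0.162 to 0.173). Abhd14a, Plin3 and Rsl24d1 lay nearest to Dusp1 (0.151 to 0.187), and Prmt7, Ccdc86 and 9130401M01Rik to Dusp5 (0.128 to 0.145). For Dusp10 and Spred2 the nearest were Stat3, Faf2 and Cyb5b (0.0908 to 0.107) and Rbbp5, Gm8615 and Cox7a2 (0.118 to 0.140). These are descriptions over 9 libraries that share their groups and depth.

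The small RNA libraries bear on these genes through microRNAs. In mouse T cells miR-181a is known to repress Dusp5 and Dusp6, and in mouse heart miR-21 is known to repress Spry1. The mature sequences are from RefSeq (GRCm38.p6), with the seed, bases 2 to 8, in capitals.
miR-21a-5p, chr11:86584120-86584141, minus strand: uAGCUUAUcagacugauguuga
miR-181a-5p, chr1:137966468-137966490, plus strand: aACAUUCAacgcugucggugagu
miR-181b-5p, chr1:137966650-137966673, plus strand: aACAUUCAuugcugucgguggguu
miR-181c-5p, chr8:84178924-84178945, minus strand: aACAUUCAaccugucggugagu
miR-181d-5p, chr8:84178759-84178781, minus strand: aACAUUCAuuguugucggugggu
The 4 miR-181 forms share the seed ACAUUCA. Mir181a-2 and Mir181b-2 on chromosome 2 give the same mature sequences as Mir181a-1 and Mir181b-1. The deposited values of such copies differ, yet which copy a mature read came from cannot be told. Calls of the copies are therefore neither separate evidence nor a sign that the copies differ.

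In small RNA, 31.0% of the 510 tested features changed in Hopx-high against naive cells (20.8% higher, 10.2% lower). The share was 13.7% in Hopx-low against naive cells (7.84% higher, 5.88% lower) and 12.5% between the activated groups (10.8% higher, 1.76% lower). The direction rests on the scaling. Between the activated groups 55 features were higher and 9 lower, but 29 and 33 with upper-quartile scaling. Against naive cells, Hopx-high cells had 106 higher and 52 lower, but 87 and 65 with that scaling. Mir21a had levels of 163882, 104207 and 85889.9 in Hopx-high cells, 37684, 28702 and 24003 in Hopx-low cells, and 4506, 6407 and 3772 in naive cells. The 3 groups did not overlap, with Hopx-high libraries on top. Mir21a was higher by 4.57 ± 0.28 in Hopx-high than in naive cells (limma adjusted p 1.1e-08), by 2.63 ± 0.28 in Hopx-low than in naive cells (1.1e-05) and by 1.94 ± 0.28 in Hopx-high than in Hopx-low cells (0.00057). Spry1 was likewise higher in both activated groups than in naive cells, and between Hopx-high and Hopx-low cells it did not pass (-0.31 ± 0.45, 95% interval -1.24 to 0.63).

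The miR-181 genes did not move together. Mir181a-1 had levels of 5912, 6133 and 4669 in Hopx-high cells, 7107, 8216 and 6683 in Hopx-low cells, and 8115, 10291 and 8047 in naive cells. It fell in Hopx-high cells (-0.66 ± 0.20, limma adjusted p 0.020), a call lost without naive replicate 2 (0.055) or Hopx-high replicate 3 (0.097), and was not called in Hopx-low cells (-0.26 ± 0.20, adjusted p 0.45). Mir181b-1 went the other way, at 804, 974 and 741 in Hopx-high cells, 636, 600.0 and 517 in Hopx-low cells, and 394, 305 and 314 in naive cells. It rose in Hopx-high cells (1.31 ± 0.19, limma adjusted p 0.00013) and in Hopx-low cells (0.79 ± 0.19, limma adjusted p 0.013), the second call being lost without naive replicate 3 (0.053) or Hopx-low replicate 1 (0.056). Its copy Mir181b-2 rose in Hopx-high cells too (1.31 ± 0.19, limma adjusted p 0.00014), missed the threshold in Hopx-low cells (0.60 ± 0.19, 0.052) and was higher in Hopx-high than in Hopx-low cells (0.71 ± 0.19, 0.026), where Mir181b-1 did not pass (0.52 ± 0.19, 0.098). That last Mir181b-2 call was lost under upper-quartile scaling (0.48, adjusted p 0.12) and without Hopx-low replicate 1 or 3 or Hopx-high replicate 1 or 2 (0.079 to 0.12). Mir181d, at 239, 214 and 138 in Hopx-high, 99.6, 78.9 and 74.8 in Hopx-low and 41.3, 58.2 and 11.2 in naive cells, rose in Hopx-high cells (2.62 ± 0.50, limma adjusted p 0.0026). Mir181c passed no test. Any link between these microRNAs and the Dusp5, Dusp6 or Spry1 values was not tested.

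**Figure D4:**
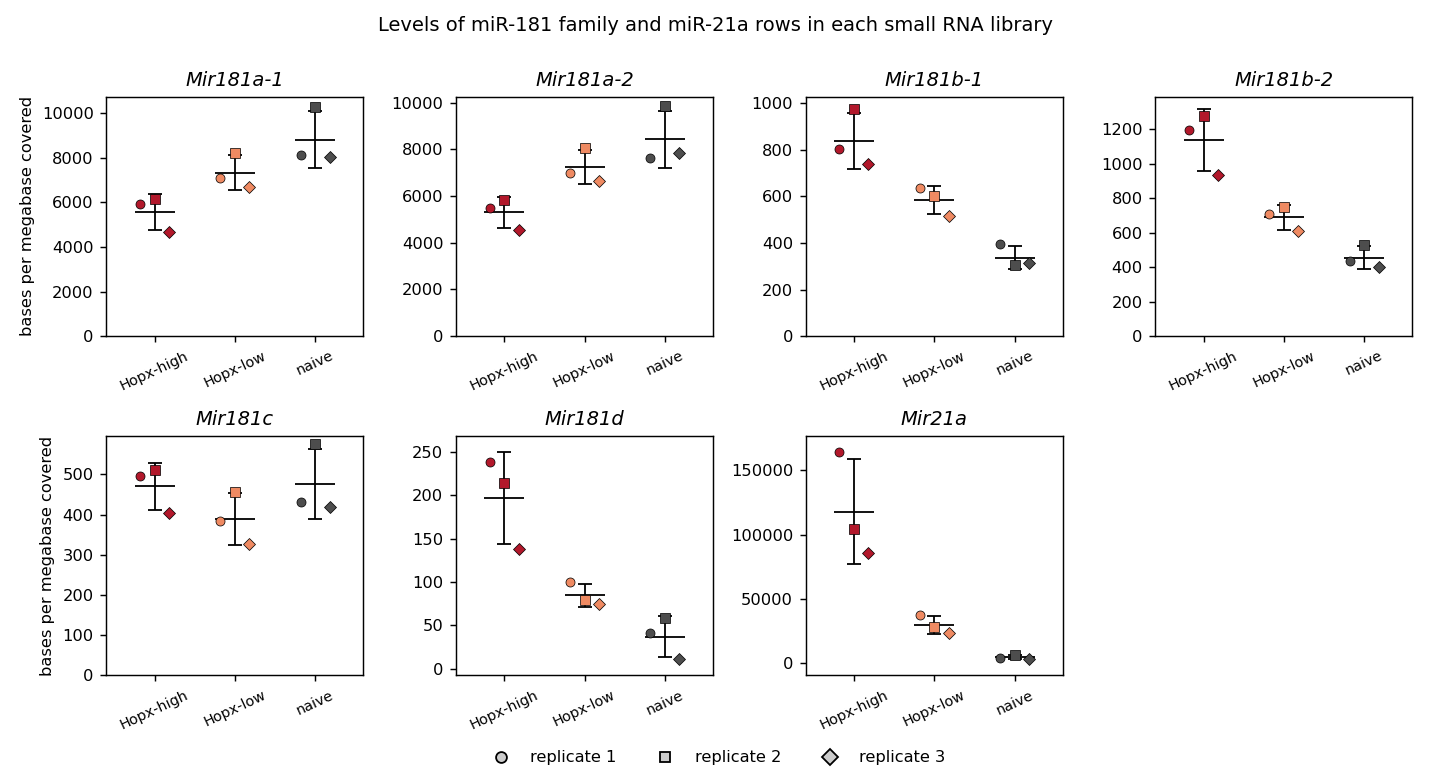
Level of each miR-181 family gene and Mir21a in every small RNA library (bases per megabase covered, linear axes that differ between panels), in Hopx-high, Hopx-low and naive cells from left to right. Points are libraries, the long line is the group mean and the bars are 1 SD (n = 3). Mir21a spans 85889.9 to 163882 in Hopx-high and 3772 to 6407 in naive libraries, and Mir181a-1 is lowest in Hopx-high cells.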

How the data were processed

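Total RNA and small RNA of Hopx-high, Hopx-low and naive CD4+ T cells were read on Ion Torrent instruments, with ribosomal RNA depleted from total RNA, per the labels' protocols. The submitters' processing notes name mm10 and bedtools. For the aligner, annotation, strand setting and multi-mapped reads the entry is: not given in the sources used here. Overlapping genes and near-identical copies may therefore share reads. The authors deposited 1 signal value per feature and library. From the values, a deposited signal was inferred to be the covered bases plus 1, times the mean library total over the library's own total. Divided by the smallest value of their library, 100% of values came out whole within 1e-06. The labels state neither the unit nor the factor, which whole values alone do not show. Bases were recovered and divided by the library's megabases (105 to 329 in total RNA, 11.6 to 36.2 in small RNA). Typical low values were 108 to 115 bases, near 1 read, so these are not read counts and no count test was used.

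Levels plus 1 were taken to log2 and fitted with limma 3.58.1 (R 4.3.3, trend and robust settings) over all 9 libraries of an assay, for features that reached a level of 1 in 3 or more libraries (11320 of 23219, and 510 of 2220 in small RNA), with Benjamini-Hochberg adjustment at 0.05. The fit was tested on simulated data with the same dispersion for every feature, which does not show how it performs on these libraries. Positions and sequences are RefSeq's (GRCm38.p6, which is mm10). Tables used Python 3.11.15, pandas 2.3.3 and numpy 2.4.6, figures matplotlib 3.10.9. Members, gene lists and tests were chosen with earlier results of these data known. Named genes are the 10 members, Hopx, up to 4 genes a list by smallest adjusted p against naive cells, the 3 nearest profiles of each member with a mean of at least 10, and the miR-181 and miR-21a genes. Scaling, pseudocount, filter, moderation, replicate block and single libraries were varied.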

Additional observations from a re-analysis of the deposited data

How the results depend on the processing

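The calls of Dusp4, Dusp6 and Spry1 against naive cells held in both activated groups under all 22 alternatives. Of 594 member values over alternatives, 583 kept their side of the threshold, 10 newly passed, 1 no longer passed and 0 called values turned sign, while 37 uncalled ones did. Between Hopx-high and Hopx-low cells 1 member passed with upper-quartile scaling, with only the 6 libraries compared and with a pseudocount of 5. Leaving out single libraries gave 3 to 4 members for Hopx-high against naive, 4 to 5 for Hopx-low against naive and 0 for Hopx-high against Hopx-low, and 1710 to 3138, 576 to 1169 and 127 to 278 of all total RNA features in the same comparisons (main counts 2666, 950 and 242). In small RNA the ranges were 118 to 160, 38 to 72 and 20 to 85 features (main counts 158, 70 and 64). Hopx-low against naive gave 614 features with limma lacking trend and robust settings. Hopx-high against Hopx-low gave 159 with that setting, 143 with the deposited value plus 1 and 154 with a pseudocount of 0.1. The cause was not tested. Limma lacking those settings also ended the calls of Ptpn7 (adjusted p 0.15), Dgkz (0.066) and Dgka (0.13) in Hopx-low cells, and of Mapk11 (0.066) in Hopx-high cells. Between the activated groups it ended those of Rasgrp2 (0.13) and Nr4a1 (0.17). Testing without a filter ended the calls of Ptpn7 (0.062) and Dgka (0.062) in Hopx-low cells and of Nr4a1 (0.067) between the activated groups. That Nr4a1 call was also lost with the deposited value plus 1 (limma adjusted p 0.052). Chosen after seeing the data, a fit of replicates 1 and 2 alone gave 1126, 497 and 71 features and 3, 4 and 0 members, where fewer samples enter, and one without both Lars2-rich libraries gave 4, 5 and 0 members.

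The replicate block gave 2677, 970 and 255 total RNA features, 137, 66 and 54 small RNA features and an unchanged 3, 4 and 0 members, and newly called Mir181b-2 (adjusted p 0.048) and Mir181d (adjusted p 0.027) in Hopx-low cells by limma. Deviations of same-numbered libraries correlated at -0.13 to 0.19 in total RNA (other pairs -0.15 to 0.21) and at -0.33 to 0.09 in small RNA. Since not every pair exceeded 0.1, the numbers were not taken to pair the libraries. Between Hopx-high and Hopx-low alone, same-numbered total RNA libraries correlated at 0.19, 0.14 and 0.06 and each correlated best with its own number, which is a hint from the data and not from the design. Depth limits Spry2, Spred1 and the naive values of Dusp4 and Spry1, which rest on a few reads.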
